A study of Homo sapiens with 9 samples.

Results

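The 46 genes described here encode the machinery that licenses replication origins and runs the replication fork, together with the transcription factors E2F1 and E2F2. They were chosen by name, as subunits of known replication complexes, and each of the 46 was found once among the 58735 genes listed for every library. All 46 passed the filter on low counts, among 18319 genes tested.

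The RNA was selected on poly-T beads and sequenced, and the cells were HEK293T, an embryonic kidney line that expresses SV40 large T antigen. All 9 libraries came from cells in which PRPS1 carries HA and a dTAG degron and PRPSAP1 carries V5 and a BromoTag degron, so the DMSO controls carry both tags too. PRPS1 is a PRPP synthetase, which makes the ribose donor for nucleotide synthesis, and PRPSAP1 is a protein associated with it. Cells were given DMSO, dTAG47 (500 nM, to deplete PRPS1) or AGB1 (500 nM, to deplete PRPSAP1) for 24 h, with 3 libraries a group. The question was how transcripts respond when either protein is removed. The labels name neither a clone nor separate cultures for the replicates, so p-values speak for the variation among these libraries alone, and that may be technical.

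Replication begins with licensing, in which the origin recognition complex (ORC), CDC6 and CDT1 load the MCM2 to MCM7 helicase ring onto DNA, and geminin (GMNN) later blocks CDT1. CDC45 and the GINS complex then turn the ring into an active helicase, and the fork is completed by the polymerases, primase, the sliding clamp PCNA with its loader RFC, the single-strand binding protein RPA, and the nucleases and ligase that join Okazaki fragments. Many of these genes are transcribed at the G1/S transition under E2F factors, which large T antigen frees by binding the retinoblastoma proteins.

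E2F-type words were frequent in the members' promoters. In the 250 bases before the RefSeq transcription start (GRCh38.p14), 4 E2F-type words were searched on both strands: TTTGGCGC, TTTCGCGC, TTTCCCGC and TTTGCCGC, the first of which reads in reverse as GCGCCAAA. Promoters were matched by symbol for 40 of the 46 genes, and 16 of the 40 genes (40.0%) held such a word, against 3.4% of the 27305 genes in the table. Counted by promoter, since a gene can have several starts, 32.0% of 50 member promoters and 2.79% of 35116 promoters held one. A CCAAT box (CCAAT, both strands) was in 58.0% of member promoters and 32.0% of all, and the CHR word TTTGAA in 0 of the 50 member promoters and 13.3% of all. The windows of 6 genes are shown because they cover both E2F activators, a licensing inhibitor, a helicase subunit, the sliding clamp and a fork protection factor, with the words in capitals. The genes and promoters used for comparison were not matched to the members in expression or base composition. A match is a description of the letters and was not tested as a binding site.

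In the promoter of E2F1 (chr20:33686386-33686448, minus strand) the words lay 33 to 13 bases before the start, and in that of MCM6 (chr2:135876492-135876625, minus strand) 152 to 79 bases before it, where each of 2 blocks reads as a word on both strands with the letters overlapping. The words of TIPIN (chr15:66356710-66356781, minus strand) likewise overlap on both strands, 66 to 55 bases before the start. E2F2 (chr1:23531238-23531305, minus strand), GMNN (chr6:24775303-24775370, plus strand) and PCNA (chr20:5126644-5126711, minus strand) each hold 1 word.
E2F1: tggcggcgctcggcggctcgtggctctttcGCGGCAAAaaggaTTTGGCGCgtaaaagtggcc
E2F2: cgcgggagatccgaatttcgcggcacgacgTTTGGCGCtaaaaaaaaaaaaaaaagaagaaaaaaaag
GMNN: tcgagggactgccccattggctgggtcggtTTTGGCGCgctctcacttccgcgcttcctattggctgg
MCM6: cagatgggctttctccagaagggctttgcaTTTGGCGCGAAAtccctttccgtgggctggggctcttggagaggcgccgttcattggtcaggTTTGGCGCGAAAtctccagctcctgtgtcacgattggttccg
PCNA: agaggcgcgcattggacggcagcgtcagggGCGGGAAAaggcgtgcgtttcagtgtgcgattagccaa
TIPIN: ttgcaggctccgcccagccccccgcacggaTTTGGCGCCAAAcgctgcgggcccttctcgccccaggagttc

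Total counts per library ranged from 27964128 to 44803380. The members took 0.694% ± 0.0103 of all counts under DMSO, 0.696% ± 0.00554 under dTAG47 and 0.688% ± 0.000586 under AGB1 (SD, n = 3), and no member had fewer than 556 counts in any library. PRPS1 mRNA stood at 103 ± 3.77, 110 ± 3.49 and 109 ± 0.556 CPM (counts scaled to the TMM-adjusted library size) in DMSO, dTAG47 and AGB1, and PRPSAP1 mRNA at 29.4 ± 6.64, 29.6 ± 2.68 and 29.1 ± 1.67; degraders act on protein, so these values do not check depletion. Of the epithelial markers, KRT8 and KRT18 were present at 33.3 and 52.3 CPM in DMSO, CDH1 at 8.21 and EPCAM at 2.24, and KRT19 was at 0 there. Of the kidney developmental markers, SIX2 was at 50.0 CPM and WT1 at 14.6 in DMSO, while PAX8 was at 0 there. The summed level of 3 leukocyte markers stayed at or below 0.796 CPM and that of 3 endothelial markers at or below 0.636 CPM in every library. The 4 fibroblast markers summed to 23.2 to 33.8 CPM, nearly all COL1A1. PDGFRA was at 1.75 CPM in DMSO, and COL1A2 and DCN had at most 7 and 6 counts in any library. The proliferation markers MKI67 and TOP2A were at 454 ± 59.8 and 594 ± 44.2 CPM in DMSO, and their sum ranged from 952 to 1160 CPM in DMSO, 952 to 1030 with dTAG47 and 973 to 1020 with AGB1.

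Per kilobase of annotated exon, PCNA was the most abundant of the 46 genes and POLA2, a subunit of DNA polymerase alpha, the least. Levels compared between genes are CPM per kilobase of exon (CPKM). The length is the union of all annotated exons of a gene, and it can exceed that of the transcripts present. The order of genes in CPKM therefore depends on the annotation too. PCNA was at 235 ± 4.95 CPKM under DMSO, 229 ± 5.62 under dTAG47 and 231 ± 5.58 under AGB1, and POLA2 at 3.47 ± 0.00861, 3.77 ± 0.422 and 3.29 ± 0.188 (SD, n = 3), so that PCNA stood 67.5 times above POLA2 in DMSO. The order of the genes was close to the same in the 3 groups: 22 of the 46 held the same rank in all of them, and the largest shift was 4 places.

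**Figure D1:**
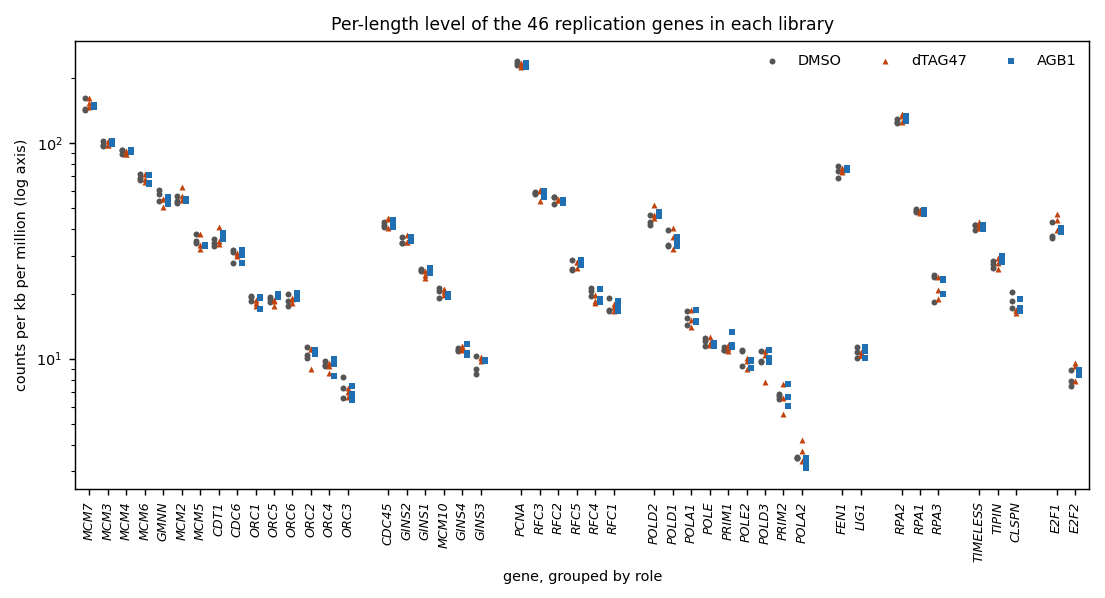
Per-length level of each of the 46 genes in each library (log axis, CPM per kilobase of exon), grouped by role and ordered by the DMSO mean; grey circles are DMSO, red triangles dTAG47 and blue squares AGB1, with a point per library. PCNA is highest at 235 CPKM and POLA2 lowest at 3.47 in DMSO, and the points of the 3 groups lie close together, the widest span over all libraries being 1.397-fold for POLD3.

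The member with the highest CPKM of each role had overlapping values in the groups. Those of the polymerases and of the E2F pair, POLD2 and E2F1, are given further below. MCM7 was at 625, 627 and 704 CPM in DMSO, 710, 642 and 668 with dTAG47 and 658, 641 and 658.5 with AGB1, its log2 fold changes being 0.05 (SE 0.05, edgeR adjusted p = 0.892) and 0.00066 (SE 0.05, edgeR adjusted p = 0.998). PCNA was at 346, 337 and 352 CPM in DMSO, 334, 331 and 347 with dTAG47 and 330, 344 and 345 with AGB1, with log2 fold changes of −0.03 and −0.02 (SE 0.05 for both; edgeR adjusted p = 0.925 and 0.948). These are the helicase subunit and the clamp with the highest levels, and neither treatment put all libraries on one side of DMSO. RPA2 was at 253, 250.3 and 259.9 CPM in DMSO, 252, 269.97 and 274 with dTAG47 and 256, 269 and 267 with AGB1, with log2 fold changes of 0.06 and 0.05 (SE 0.05 for both; edgeR adjusted p = 0.857 and 0.858). The RPA2 libraries overlapped between DMSO and each treatment. CDC45 was at 116, 119 and 123 CPM in DMSO, 127, 127 and 115 with dTAG47 and 117, 119 and 125 with AGB1 (log2 fold changes 0.05 and 0.01, SE 0.06, edgeR adjusted p = 0.915 and 0.987). FEN1 was at 169.6, 184 and 193 CPM in DMSO, 185, 189 and 182 with dTAG47 and 186, 188 and 190.4 with AGB1 (log2 fold changes 0.03 and 0.05, SE 0.06, edgeR adjusted p = 0.959 and 0.895). TIMELESS was at 243, 229.8 and 243 CPM in DMSO, 249, 243 and 235 with dTAG47 and 242, 233 and 240.3 with AGB1 (log2 fold changes 0.02 and 0.0014, SE 0.05, edgeR adjusted p = 0.956 and 0.997). In each of these 3 genes the treated libraries lay within or next to the DMSO range.

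Among the licensing genes, the 6 subunits of the helicase ring differed 4.16-fold in CPKM in DMSO. Annotated exon length adds to this spread: MCM5 and MCM2 were at 262 and 266 CPM, over 7338 and 4902 exonic bases. MCM7 was highest at 149 ± 10.3 CPKM, followed by MCM3 (98.8 ± 3.20), MCM4 (91.3 ± 2.19), MCM6 (69.4 ± 2.15), MCM2 (54.3 ± 1.99) and MCM5 (35.7 ± 1.86; SD, n = 3). ORC subunits were lower, with ORC1, ORC5 and ORC6 between 18.7 and 19.1 CPKM, their SDs overlapping, and ORC2, ORC4 and ORC3 at 10.6, 9.43 and 7.36. GMNN was at 57.4 ± 3.34 CPKM, above its target CDT1 at 34.5 ± 1.249 and CDC6 at 30.2 ± 2.18. CDC45 led the helicase partners at 41.9 ± 1.28 CPKM, with GINS2 at 35.1 and GINS3 at 9.24 as the extremes of GINS.

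At the fork, the clamp loader subunits RFC3 and RFC2 (58.5 ± 0.744 and 54.8 ± 2.45 CPKM) stood above the large subunit RFC1 (17.5 ± 1.36). In CPM, RFC3 was at 168, RFC2 at 121 and RFC1 at 118 in DMSO. Of the polymerases, POLD2 and POLD1 of the lagging-strand polymerase delta were at 43.6 ± 2.42 and 35.5 ± 3.42 CPKM, and POLE, the catalytic subunit of the leading-strand polymerase epsilon, at 11.98 ± 0.475. POLE has 16609 annotated exonic bases, and in CPM it was at 199 in DMSO, against 161 for POLD2 and 175 for POLD1. RPA2 led the single-strand binding complex at 126 ± 2.48 CPKM against 48.4 ± 0.783 for RPA1 and 22.2 ± 3.31 for RPA3. In CPM, RPA1 (266) was above RPA2 (254) in DMSO. FEN1, the flap nuclease of Okazaki fragments, was at 73.5 ± 4.79 and the ligase LIG1 at 10.7 ± 0.617. TIMELESS, TIPIN and CLSPN, which protect the fork and pass on the checkpoint signal, were at 41.0, 27.3 and 18.7 CPKM. E2F1 was at 38.7 ± 3.74 and E2F2 at 8.07 ± 0.738.

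The counts of some members are uncertain because other annotated genes share their sequence or place. POLA2 shares 52.86% of its 75-base words with AP000944.2, which overlaps it on the same strand, PRIM1 20.79% with AC117378.1, PRIM2 18.62% with 2 other genes, ORC6 11.14% with 12 and POLD1 10.22% with AC020909.1. TIPIN overlaps RPL9P25 over 21.02% of its exonic bases on the same strand, and MCM2 and GINS4 overlap opposite-strand genes over 23.62% and 23.56%. The strand setting of the counting is not given in the sources used here.

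With dTAG47, none of the 46 replication genes differed from DMSO in edgeR's quasi-likelihood test at an adjusted p of 0.05 (Benjamini-Hochberg over 18319 genes); 0.06% of all genes tested were called. Their median log2 fold change was −0.004, beside −0.001 over all genes, and 23 were positive and 23 negative. At an unadjusted p under 0.05 there were 2 of 46 members, CLSPN and E2F1, beside 7.28% of all genes. DESeq2 called 0 members as well, with 3 at an unadjusted p under 0.05, beside 8% of all genes in DESeq2. Had levels been lower, bulk RNA could not have told fewer cells in S phase from less RNA per such cell.

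The intervals were narrow. The median standard error of a member's log2 fold change was 0.067, against 0.13 over all genes, and for 45 of the 46 members the 95% interval lay within 0.32 of 0 on the log2 scale. The 8121 tested genes in the members' range of mean CPM had a median standard error of 0.078, and 85.8% of them had such an interval. The exception was POLA2, whose interval reached 0.34, and CLSPN had the lowest bound at −0.32. In all, 37 members had a fold change within 0.1 of 0 on the log2 scale.

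**Figure D2:**
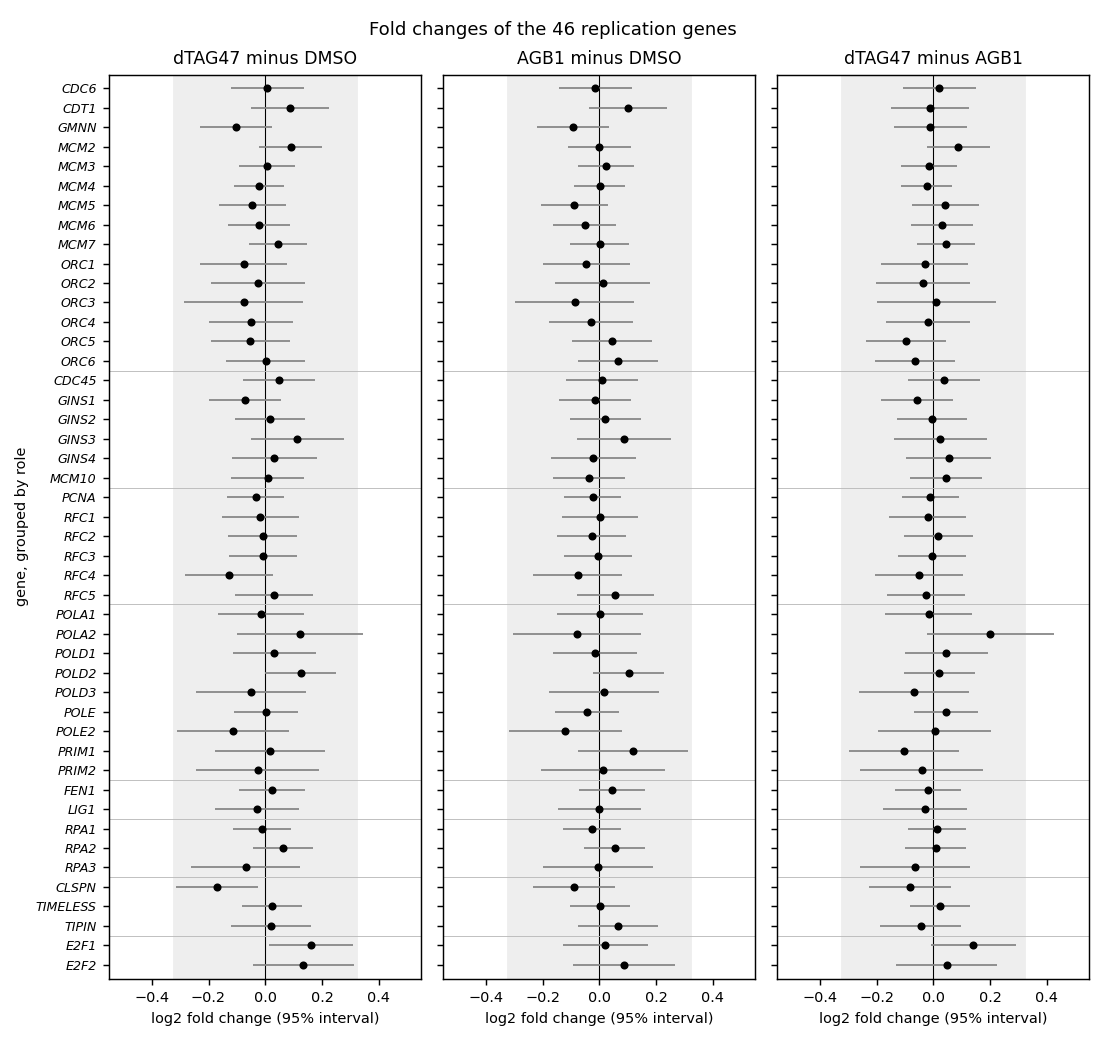
Log2 fold changes of the 46 genes (points) with 95% intervals (lines) from edgeR for dTAG47 over DMSO, AGB1 over DMSO and dTAG47 over AGB1, grouped by role; the first 2 comparisons share the DMSO libraries. The shaded band reaches 0.32 either side of 0 on the log2 scale, and the only intervals that leave it are those of POLA2 with dTAG47, over either other group.

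CLSPN (ENSG00000092853, chromosome 1, 35720218 to 35769967, minus strand), claspin, which brings the checkpoint kinase CHEK1 to stalled forks, had the smallest p with dTAG47. It was at 111, 99.6 and 93.0 CPM in DMSO, 87.8, 91.0 and 90.6 with dTAG47, and 102, 90.1 and 92.9 with AGB1. The dTAG47 libraries all lay below the DMSO libraries, the nearest pair being 91.0 and 93.0, whereas the AGB1 libraries overlapped both groups. The log2 fold change with dTAG47 was −0.17 (SE 0.07, 95% interval −0.32 to −0.03), which did not pass (edgeR adjusted p = 0.614). Leaving out DMSO 1, its highest library, gave −0.10, and leaving out DMSO 3 gave −0.23. CLSPN was the only member whose libraries did not overlap between dTAG47 and DMSO, beside 11.6% of all genes tested.

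E2F1 (ENSG00000101412, chromosome 20, 33675683 to 33686404, minus strand), an activator of the G1/S gene program, was at 90.5, 92.5 and 108 CPM in DMSO, 117, 98.4 and 110 with dTAG47, and 101, 96.8 and 96.5 with AGB1. The groups overlapped, with DMSO 3 above dTAG47 2. Its log2 fold change with dTAG47 was 0.16 (SE 0.07, interval 0.01 to 0.31, edgeR adjusted p = 0.646), and it ranged from 0.10 without dTAG47 1 to 0.24 without DMSO 3. E2F2, its close relative, was at 42.98, 40.6 and 48.5 CPM in DMSO against 51.9, 43.1 and 50.2 with dTAG47, a log2 fold change of 0.13 (interval −0.04 to 0.31). The summed level of both was 141 ± 13.2 CPM for DMSO, against 157 ± 13.9 for dTAG47 and 145 ± 2.27 for AGB1 (SD, n = 3).

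The next members by p with dTAG47 were POLD2, RFC4 and GMNN. POLD2 (ENSG00000106628, chromosome 7, 44114681 to 44124358, minus strand), an accessory subunit of polymerase delta, was at 153, 159 and 171 CPM in DMSO and 190, 166 and 171 with dTAG47, or 0.12 as log2 fold change (SE 0.06; adjusted p = 0.681 in edgeR). Each dTAG47 library lay above DMSO 1 and DMSO 2, and dTAG47 2 lay below DMSO 3. The POLD2 value was 0.06 without dTAG47 1 and 0.17 without DMSO 3. RFC4 (ENSG00000163918, chromosome 3, 186789880 to 186807058, minus strand), a small clamp loader subunit, was at 58.8, 63.8 and 61.8 CPM in DMSO and 55.4, 54.5 and 58.8 with dTAG47, or −0.13 as log2 fold change (SE 0.08; adjusted p = 0.754 in edgeR), with dTAG47 3 just above DMSO 1. GMNN (ENSG00000112312, chromosome 6, 24774931 to 24786099, plus strand), the inhibitor of relicensing, was at 133, 150 and 144 CPM in DMSO and 125, 136 and 136 with dTAG47, or −0.10 as log2 fold change (SE 0.06; adjusted p = 0.761 in edgeR), DMSO 1 lying among the dTAG47 values. The GMNN value was −0.06 without dTAG47 1, −0.07 without DMSO 2 and −0.15 without DMSO 1.

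With dTAG47 the median log2 fold change of every role but the E2F pair lay between −0.022 and 0.024. The 15 licensing genes had a median log2 fold change of −0.022 and a range of −0.103 (GMNN) to 0.089 (MCM2), with 6 positive. The 6 helicase partners had a median of 0.024, from −0.072 (GINS1) to 0.113 (GINS3), and the 6 genes of the clamp and its loader −0.013, with RFC5 alone positive at 0.03. The 9 polymerase and primase genes had a median of 0.002, from −0.115 (POLE2) to 0.124 (POLD2). The RPA genes lay between −0.069 (RPA3) and 0.062 (RPA2), FEN1 was at 0.03 and LIG1 at −0.03. Summed over the 15 licensing genes, levels were 3273 ± 78.2 CPM for DMSO, against 3278 ± 56.1 for dTAG47 and 3253 ± 41.6 for AGB1 (SD, n = 3).

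With AGB1, again 0 of the 46 members passed against DMSO (edgeR), while 0.104% of all genes tested were called, and 0 had an unadjusted p under 0.05, beside 7.76% of all genes. DESeq2 gave 0 members on both counts, with 8.49% of all genes at an unadjusted p under 0.05. The median log2 fold change was 0.001 for the members and −0.001 for all genes, and 25 members were positive. The 95% interval lay within 0.32 of 0 for 46 of 46 members, beside 85.4% of tested genes in the same range of mean CPM, and 42 members were within 0.1 of 0. The extreme bounds were −0.32 for POLE2 and 0.31 for PRIM1.

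MCM5 (ENSG00000100297, chromosome 22, 35400063 to 35425430, plus strand), a helicase ring subunit, was the only member whose AGB1 and DMSO libraries did not overlap, beside 13.3% of all genes. It was at 252, 257 and 278 CPM in DMSO, 277, 237 and 248 with dTAG47, and 245, 248 and 247 with AGB1. The AGB1 libraries were all below DMSO, while those of dTAG47 spanned both. The log2 fold change with AGB1 was −0.09 (SE 0.06, interval −0.21 to 0.03, edgeR adjusted p = 0.758). It was −0.05 without DMSO 3 and −0.11 without DMSO 1. The ring subunits as a whole stayed between −0.089 (MCM5) and 0.02 (MCM3) with AGB1.

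POLD2 was at 176, 174 and 169 CPM with AGB1, a log2 fold change of 0.10 against DMSO (SE 0.06, edgeR adjusted p = 0.716), DMSO 3 at 171 lying within the AGB1 values. CDT1 (ENSG00000167513, chromosome 16, 88803213 to 88809258, plus strand), the licensing factor, was at 115, 111 and 120 CPM in DMSO, 136, 114 and 117 with dTAG47, and 127, 119 and 124 with AGB1. The AGB1 libraries overlapped DMSO only through AGB1 2, just below DMSO 3, and the log2 fold change was 0.10 (SE 0.07, edgeR adjusted p = 0.765). GMNN was at 132, 139 and 129 CPM with AGB1, overlapping DMSO. Its log2 fold change was −0.09 (SE 0.06, edgeR adjusted p = 0.770), or −0.06 without DMSO 2 and −0.13 without DMSO 1. PRIM1 (ENSG00000198056, chromosome 12, 56731596 to 56752373, minus strand), the catalytic primase subunit, was at 27.7, 26.7 and 26.7 CPM in DMSO and 32.2, 27.7 and 28.1 with AGB1. Its log2 fold change was 0.12 (SE 0.10, edgeR adjusted p = 0.816). AGB1 1 alone stood apart, and without it the value was 0.05, while without AGB1 2 it was 0.16.

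Between the 2 compounds, 0 members passed (edgeR; 0% of all genes tested were called, and 4.02% had an unadjusted p under 0.05, as did 0 members). DESeq2 gave 0 members on both counts, with 4.47% of all genes at an unadjusted p under 0.05. The median log2 fold change of dTAG47 minus AGB1 was −0.008 over the members and 0 over all genes, and 45 of 46 intervals lay within 0.32 of 0, beside 90.5% of tested genes in the same range of mean CPM. The libraries of ORC5 alone did not overlap, beside 10.5% of all genes. ORC5 (ENSG00000164815, chromosome 7, 104126341 to 104208047, minus strand), an origin recognition subunit, was at 72.1, 70.6 and 68.2 CPM in DMSO, 65.1, 68.7 and 69.5 with dTAG47 and 73.9, 71.5 and 71.9 with AGB1, a log2 difference of −0.10 (SE 0.07, edgeR adjusted p = 0.999).

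POLA2 (ENSG00000014138, chromosome 11, 65261762 to 65305589, plus strand) had the largest difference between the compounds. It was at 19.9, 19.9 and 19.9 CPM in DMSO, 21.4, 24.1 and 19.3 with dTAG47, and 17.8, 19.9 and 18.9 with AGB1. The groups overlapped at 19.3 and 19.9, and the log2 difference of 0.20 (SE 0.11, interval −0.02 to 0.42) had an edgeR adjusted p of 0.999. Without dTAG47 2, its highest library, the difference was 0.11, and without dTAG47 3 it was 0.27. E2F1 differed by 0.14 (SE 0.07), MCM2 by 0.09 (SE 0.05) and CLSPN by −0.08 (SE 0.07), each with an edgeR adjusted p of 0.999. The E2F1 difference was 0.08 without dTAG47 1 and 0.21 without dTAG47 2. That of CLSPN was −0.03 without AGB1 1 and reached −0.12 in another fit that omits a library. MCM2 (ENSG00000073111, chromosome 3, 127598223 to 127622436, plus strand) was at 257, 264 and 277 CPM in DMSO, 305, 267 and 278 with dTAG47 and 270, 264 and 265 with AGB1, so that dTAG47 1 alone stood above all others. Without dTAG47 1 its difference between the compounds was 0.03, and without dTAG47 2 it was 0.13.

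**Figure D3:**
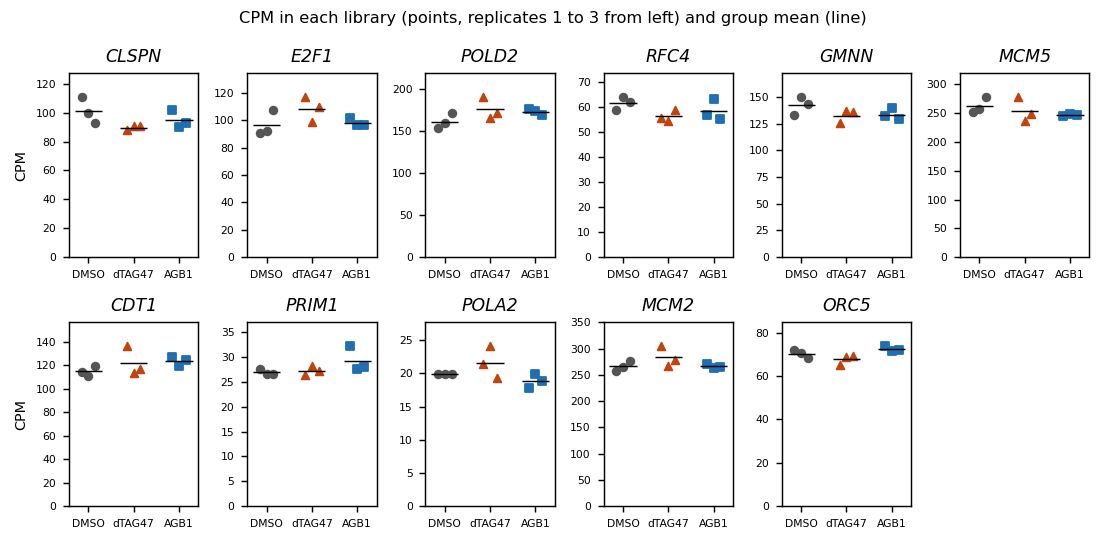
CPM of the 11 members that were among the 5 smallest unadjusted p-values of at least 1 comparison, with a point per library (replicates 1 to 3 from left) and a line at the group mean; axes start at 0. CLSPN with dTAG47, MCM5 with AGB1 and ORC5 between the compounds are the sets that do not overlap, and none of the 11 passed the adjusted threshold.

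In several libraries the members' deviations followed the GC content of their transcripts. Across the 46 genes, which are not independent replicates, Spearman's rho between a gene's deviation from its mean over the 9 libraries and the GC content of its longest transcript was 0.797 in dTAG47 1, −0.546 in dTAG47 2 and 0.105 in dTAG47 3. It was −0.358, −0.515 and 0.359 in DMSO 1 to 3 and between −0.275 and −0.017 in the AGB1 libraries. The same measure over 11435 genes at 5 CPM or more gave 0.625 in dTAG47 1, −0.379 in DMSO 1 and −0.33 in dTAG47 2. Genes outside the list thus showed slopes of the same sign in these libraries. In AGB1 1 to 3 it gave −0.006, −0.027 and 0.05, against −0.275, −0.118 and −0.017 for the members. In dTAG47 1 the GC-rich genes E2F1 (62.49% GC), CDT1 (64.91%), POLD1 (64.97%), POLD2 (59.13%), MCM2 (58.14%), MCM7 (57.59%) and E2F2 (57.5%) had their highest value of the 9 libraries, and GC-poor genes such as ORC2 (40.12%), ORC5 (41.02%), RFC3 (39.05%) and POLD3 (43.03%) their lowest. For 12 members dTAG47 1 was the lowest library and for 9 the highest. POLD3, a polymerase delta subunit, was at 43.04 CPM in dTAG47 1 against 53.0 to 60.1 elsewhere, the widest span among members (1.397-fold), whereas MCM4 spanned 1.047-fold.

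**Figure D4:**
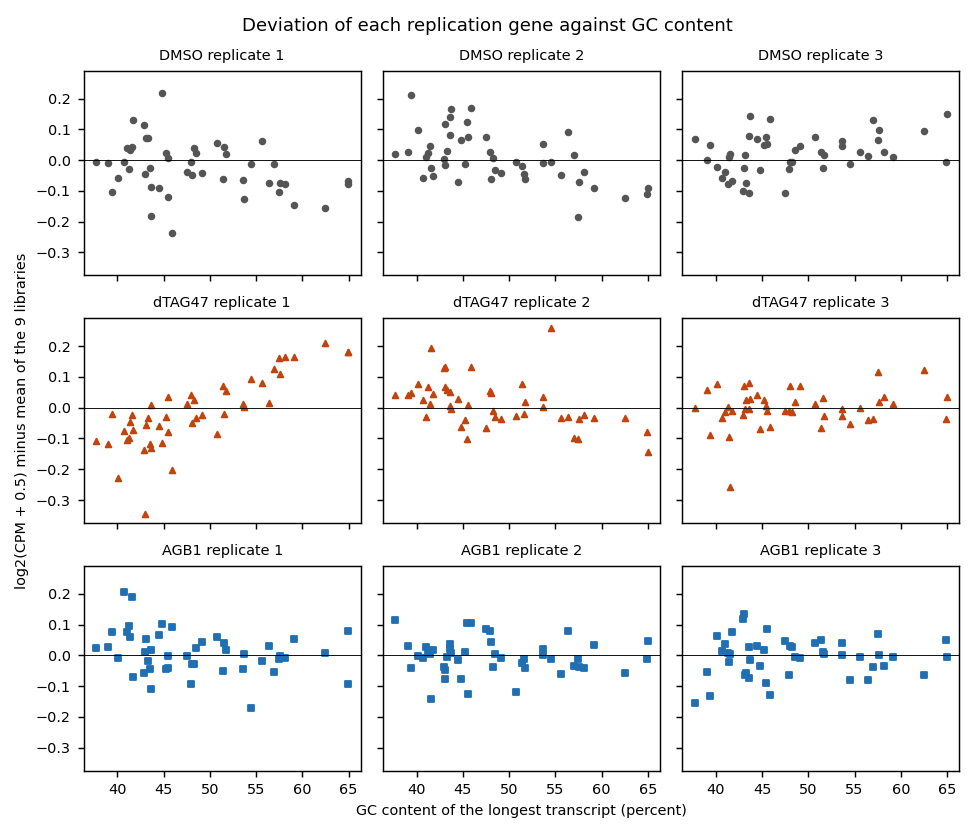
Deviation of each of the 46 genes from its mean over the 9 libraries (log2 of CPM + 0.5) against the GC content of its longest transcript, with a panel per library. The points rise with GC in dTAG47 replicate 1 (rho 0.797) and fall in DMSO replicates 1 and 2 and dTAG47 replicate 2, while rho lies between −0.275 and −0.017 in the AGB1 panels.

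Divided at the members' median GC of 46.7%, the 23 genes at or above it had a median log2 fold change of 0.025 with dTAG47 (17 positive) and the 23 below it −0.027 (6 positive). With the GC trend of each library removed, these medians were −0.002 and −0.005, and without dTAG47 1 they were 0.005 and 0.007. With AGB1 the medians were 0.001 and −0.004, and −0.02 and 0.004 with the trend removed. On removal of the trend, E2F1 went from 0.16 to 0.11 and POLD2 from 0.12 to 0.07 with dTAG47, CLSPN stayed at −0.17 (edgeR adjusted p = 0.431), and MCM5 went from −0.09 to −0.11 with AGB1 (edgeR adjusted p = 0.379). No member passed the threshold with the trend removed.

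Fold changes were also read by promoter word, with no test. The 16 genes with a word had a median log2 fold change of 0.004 with dTAG47 and 0 with AGB1, with 9 positive in each, and the 24 matched genes without one had −0.004 and 0.001. With dTAG47 the genes with a word ran from −0.103 (GMNN) to 0.161 (E2F1) and those without from −0.171 (CLSPN) to 0.124 (POLD2).

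The other replication and S-phase genes, 55 genes listed by function, held no call either: 0 passed in either direction in any of the 3 comparisons (edgeR). At an unadjusted p under 0.05 there were 2 with dTAG47, 4 with AGB1 and 1 between the compounds; these were 3.64%, 7.27% and 1.82% of the list, beside 7.28%, 7.76% and 4.02% of all genes tested. DESeq2 also called 0, with 1, 5 and 1 at an unadjusted p under 0.05, beside 8%, 8.49% and 4.47% of all genes in DESeq2. Their median log2 fold change was −0.013 with dTAG47 and 0 with AGB1. With dTAG47 the smallest p belonged to RNASEH2B, a subunit of the ribonuclease that removes ribonucleotides from DNA (−0.18, SE 0.08, edgeR adjusted p = 0.627), and TOP2A, the topoisomerase that untangles replicated DNA (−0.11, SE 0.05, edgeR adjusted p = 0.681). RNASEH2B was at 55.2, 68.6 and 59.5 CPM in DMSO and 54.6, 52.5 and 54.2 with dTAG47, which did not overlap, as in 11.6% of all genes tested. With AGB1 it was ATRIP, the partner of the checkpoint kinase ATR (0.22, SE 0.09, edgeR adjusted p = 0.479), and the E2F family member E2F4 (0.13, SE 0.06, edgeR adjusted p = 0.585). ATRIP was at 37.0, 34.1 and 37.5 CPM in DMSO and 41.7, 44.8 and 40.4 with AGB1, again without overlap, as in 13.3% of all genes tested. Firing factors (12 genes), S-phase checkpoint genes (10) and the ubiquitin ligase genes that control licensing (5) had medians of −0.021, −0.013 and 0.014 with dTAG47 and 0.011, −0.021 and 0.017 with AGB1.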

How the data were processed

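HISAT2, DESeq2 and hg38 are named, without versions or roles, per the submitters' processing notes. The sources used here give no counting tool or strand setting. The deposited files hold raw whole-number counts per Ensembl gene, 1 library per file, with gene models that match GENCODE 29 (GRCh38) in start, end and strand for 58735 of 58735 genes. Groups and replicate numbers came from the sample titles, and the labels name no batch.

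Counts were fitted with edgeR 4.0.16 in R 4.3.3: filterByExpr by group, TMM scaling (also used for CPM), a coefficient per group over all 9 libraries, glmQLFTest, and Benjamini-Hochberg adjustment over 18319 genes with a threshold of 0.05. Standard errors were derived from each log2 fold change and the F statistic of its test. The procedure was tested on simulated data. A count of 3 is 0.067 to 0.107 CPM, and the common biological coefficient of variation was 11%; reads carry no molecular identifiers, so depth speaks for counting error only. GC trends were removed by lowess (span 0.3) as offsets.

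The genes, the lists and the tests were chosen with earlier results of these data known. Per-library values are given for the 5 members with the smallest unadjusted p in each comparison, for the most abundant member of each role in CPKM and the least abundant of all, and for the 2 other replication genes with the smallest p per comparison with DMSO. E2F2 and POLD3 were added after their values were seen.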

Additional observations from a re-analysis of the deposited data

How the results depend on the processing

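In each of the 20 other settings, 0 of the 46 members passed in any of the 3 comparisons, with a smallest adjusted p of 0.178 (E2F1 with dTAG47, edgeR without DMSO 3). The settings were DESeq2 1.42.0, limma-voom, 3 other scalings, 2 other filters, only the 2 groups compared, a replicate block, GC trend removal alone or joined to the block, and the 9 fits that each omit a library. The member medians moved by less than 0.0166, the spread between libraries of a group, and each named member kept its direction. Counts over all genes moved more. With dTAG47 (11 genes) they were 47 with DESeq2, 43 with no low-count filter, 22 with the GC trend removed, 17 with the replicate block and the GC trend removed and 4 with only the groups compared. With AGB1 (19 genes) they were 81, 67, 48 and 48 in the first 4 of these settings, and between the compounds (0 genes) 13 with no low-count filter; the cause was not tested. Leaving out a library gave 2 (without dTAG47 1) to 20 (without DMSO 3) genes with dTAG47, with 3 without DMSO 2, 5 without DMSO 1 and 6 without dTAG47 3. With AGB1 it gave 6 (without AGB1 3) to 55 (without DMSO 3), with 7 without DMSO 2, 9 without AGB1 2 and 10 without DMSO 1. Between the compounds it gave 0 to 2 (without AGB1 1), with 1 without dTAG47 1. Correlations of same-numbered deviations ran from −0.161 to 0.073, and those of different-numbered ones from −0.258 to 0.27. Same-numbered libraries were thus no closer, but deviations followed GC content in several libraries, and pairing itself was not tested. With the replicate block, 10, 17 and 0 genes were called with dTAG47, with AGB1 and between the compounds. Each member had at least 556 counts per library, and standard errors with dTAG47 ran from 0.04 (MCM4) to 0.11 (POLA2, the least abundant member). The division by GC content and its values were added after the data were seen.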
